A study of Mus musculus with 24 samples.

Results

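Myc, its relative Mycn and their partner Max, cyclin D1 (Ccnd1) and the immediate early genes Fos, Jun, Junb, Jund and Egr1 were followed in mouse liver. These 9 genes were chosen by name, because the level of Myc differed between genotypes in opposite directions in treated females and treated males, and the other 8 were set beside it. They are 9 of 19037 genes measured, and every non-control probe carrying one of these names was taken, 13 probes in all, of which 12 were above background on at least 4 of the 24 arrays. The pattern of Myc over the groups, and the dKO against WT differences in treated females and treated males, were used in that choice. Those values are therefore given as a description without a test.

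Total RNA was hybridised to single-colour Agilent arrays, and each of the 6 groups had 4 of the 24 arrays. They comprised treated dKO females, treated WT females, treated dKO males, treated WT males, untreated dKO females and untreated WT females, where dKO stands for livers without Foxa1 and Foxa2, a pair of forkhead transcription factors. Treated mice had received diethylnitrosamine (DEN, a carcinogen activated in hepatocytes) once at 20 mg/kg when 14 to 15 days old, and then TCPOBOP (an agonist of the nuclear receptor CAR and a tumour promoter) at 3 mg/kg, 8 times at intervals of 2 weeks. All 24 samples, untreated ones included, carry the tissue label of liver tumour, and the extraction text names both liver pieces and sorted cells without saying which sample was which. The sources used here name no Cre driver, strain or age at collection. They also leave unsaid whether the 4 samples of a group came from separate mice, so a p-value here measures sample-to-sample spread, which may be technical.

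MYC is a transcription factor that binds DNA as a dimer with MAX, and proteins of the MXD family compete with it for MAX. Cyclin D1 activates CDK4 and CDK6, which phosphorylate the RB protein and release cells into S phase. FOS and JUN proteins pair to form AP-1, and EGR1 is a zinc finger factor. The genes for FOS, JUN, JUNB, EGR1 and MYC are switched on within minutes to hours of growth factor signals or injury without new protein synthesis, hence the name immediate early genes. In the mouse liver they are known for their rapid induction when liver tissue is removed, and Jun is known to be needed for efficient hepatocyte proliferation.

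Foxa1 was not well above background on any dKO array and was well above it on all WT arrays, and it was at least 5.99-fold lower in treated dKO than in treated WT males, the smallest of the 3 genotype bounds. Foxa2 had mean levels of -6.06 in treated dKO and 4.01 in treated WT females, -4.30 in treated dKO and 3.69 in treated WT males, and -3.99 in untreated dKO and 4.45 in untreated WT females. It was nevertheless well above background on 2, 2 and 3 of the 4 arrays of these dKO groups, whose SDs were 0.95, 1.35 and 2.23. Cyp2b10, a target of CAR, averaged 5.61 ± 0.37 in treated WT females and 2.51 ± 0.11 in untreated WT females (log2 level, SD, n = 4 each). In dKO females it averaged 4.12 ± 1.54 with treatment and 3.69 ± 0.18 without, with overlapping groups (limma, adjusted p = 0.476), so this gene did not separate treated from untreated dKO females. A level here is the log2 of the processed intensity minus the log2 of that array's 75th percentile, so a level of 0 is the 75th percentile, and levels of different genes come from different probes and are not compared. Between 50.4 and 68.4% of spots were well above background on an array, and the 75th percentile lay between 435 and 960 intensity units. No spot was saturated, and the number of arrays limits the precision. Averaged by group, the share of such spots was largest for treated dKO females, with 67.2%. Treated dKO males came next with 62.1%, and untreated WT females had the smallest mean, 59.4%. Whether this imbalance affects the group differences was not tested. The position of an array on its slide went with group: all treated dKO female arrays were at position 4, all treated WT male arrays at position 1, and within each sex treated dKO and treated WT arrays shared no position. Untreated dKO female arrays were at positions 2 and 3, so position and treatment also went together in dKO females. In that tested comparison 7207 genes were called, and 2360 with position as a covariate. Of the 149 called differences of list genes picked for naming, 79 did not pass with position as a covariate, 41 with only the 2 groups compared in the fit, 39 with normexp background correction and 27 with slide as a fixed block. The calls that held in every alternative are named with each list. Among hepatocyte markers, summed linear levels were 976 to 1799 in treated dKO females and 1528 to 2270 over the arrays of the other 5 groups, so these markers were abundant on every array.

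Sequences are given for the places where the identity of a signal matters. Myc and Mycn are related in sequence, and the most upstream probe of each gene is shown so that the letters can be compared. The Mycn probe shown is the dim one, well above background on 3 arrays, and not the one that gives the Mycn values below. The Myc probe A_52_P278549 lies at chr15:61820925-61820984 on the plus strand and the Mycn probe A_51_P497332 at chr12:12944312-12944371 on the minus strand (mm9, from the array files). Capitals mark the longest run that both probes hold, 8 bases long. With this run aligned, 27 of 51 bases were identical.
Myc: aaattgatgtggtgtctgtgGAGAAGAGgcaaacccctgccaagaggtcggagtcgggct
Mycn: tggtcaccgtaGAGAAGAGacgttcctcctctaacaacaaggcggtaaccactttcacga

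The promoters of Fos and Jun are shown because these genes fell together with treatment in WT females, as described further on. They are the 250 bases before the annotated start of each gene, from RefSeq (GRCm38.p6), at chr12:85473640-85473889 on the plus strand for Fos and chr4:95052223-95052472 on the minus strand for Jun. Capitals mark every match, on either strand, to a short list of motifs. These were the CArG box (the site of serum response factor), TGACG and TGACNTCA (sites of cAMP-responsive and ATF factors) and TGANTCA (a pattern that includes the AP-1 site). The TATA sequence TATAA, the GC box GGGCGG and the E-box CACGTG of MYC and MAX completed the list. The RefSeq table held a promoter for 6 of the 9 genes.
Fos: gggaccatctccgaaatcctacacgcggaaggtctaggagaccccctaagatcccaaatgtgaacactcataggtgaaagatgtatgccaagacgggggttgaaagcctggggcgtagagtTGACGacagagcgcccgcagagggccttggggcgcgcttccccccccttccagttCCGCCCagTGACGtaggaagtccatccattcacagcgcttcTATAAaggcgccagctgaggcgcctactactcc
Jun: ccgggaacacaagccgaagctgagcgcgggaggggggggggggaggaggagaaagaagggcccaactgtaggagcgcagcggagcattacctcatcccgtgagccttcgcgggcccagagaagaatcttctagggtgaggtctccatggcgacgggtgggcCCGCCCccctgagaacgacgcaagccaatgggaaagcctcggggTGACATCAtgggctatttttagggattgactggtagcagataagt

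The Fos window held TGACG at -129 to -125 and at -66 to -62, counted back from the start. It also held TATAA at -33 to -29 and one match to GGGCGG on the minus strand. The Jun window held TGACNTCA at -45 to -38, and one match to GGGCGG. No match overlapped another. Of all 32851 promoters of the same length in the table, 17.8% held TGACG and 7.49% held TGACNTCA. The share was 22.8% for the TATA sequence and 32.7% for the GC box. The CArG box, the pattern TGANTCA and the E-box were in neither window and in 1.47%, 6.75% and 6.02% of all windows. Bases further upstream were not searched, so their absence holds for these windows only. Junb held TGACG at -106 to -102, Mycn held 2 matches to GGGCGG, and no motif of the list was found in the windows of Max and Jund. A match describes these letters and does not show that a factor bound there.

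Myc was highest in treated dKO females and in treated WT males and lower in the other 4 groups. The 4 treated dKO females had log2 levels of 0.51, 1.11, 0.19 and 0.53, against -0.13, -0.82, -0.33 and -0.56 in treated WT females. All dKO values lay above all WT values in females. The 4 treated dKO males had levels of -0.79, -0.23, -0.53 and -0.54, against 0.04, 0.62, -0.11 and 0.34 in treated WT males, so in males all dKO values lay below all WT values. Untreated dKO females had -0.01, -0.55, -0.85 and -0.40, and untreated WT females -1.16, -0.34, 0.13 and -0.38, with overlapping ranges.

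**Figure D1:**
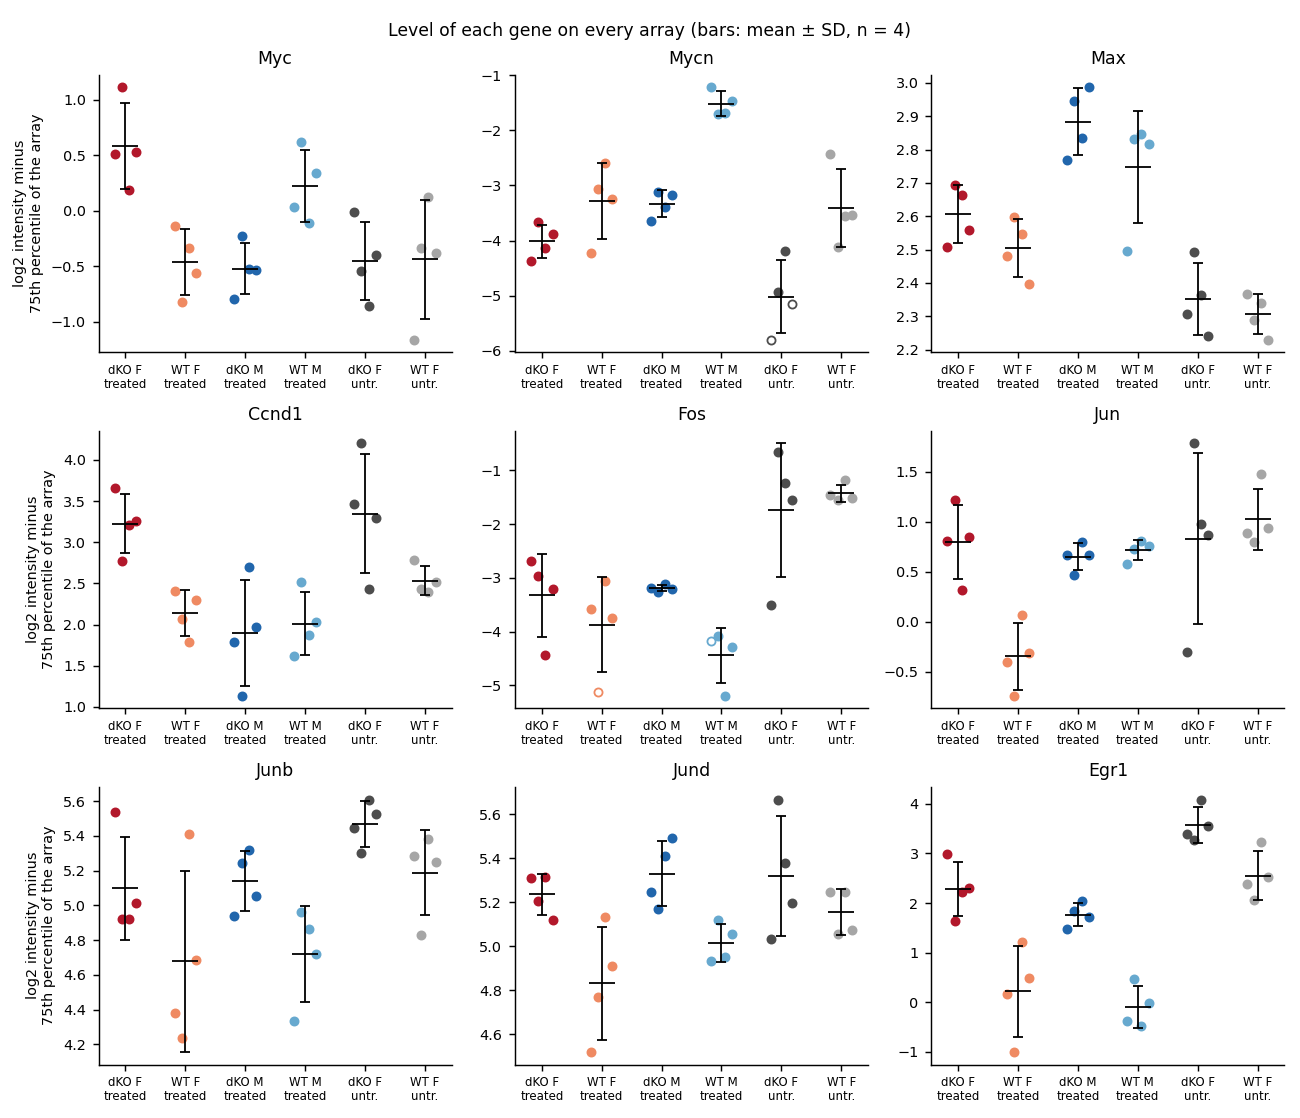
Log2 level of each of the 9 genes on each of the 24 arrays (y axis: log2 intensity minus the 75th percentile of the array) in the 6 groups (x axis). Each point is one array, open where the probe was not well above background, and bars give the mean ± SD (n = 4). Myc was above 0 on all 4 treated dKO female arrays and below 0 on all 4 treated dKO male arrays, and Egr1 was highest in untreated dKO females.

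On average Myc was 2.06-fold higher in treated dKO than in treated WT females (log2 1.04 ± 0.25, SE) and 1.67-fold lower in treated dKO than in treated WT males (log2 -0.74 ± 0.25). Within the slides that held arrays of both groups, the female difference ranged between 0.66 and 1.44 over 2 slides, and the male difference between -0.87 and -0.68 over 3 slides. Without treatment the genotypes differed by -0.01 ± 0.25 in females. Myc was 1.04 ± 0.25 higher in treated than in untreated dKO females, against a difference of -0.02 ± 0.25 in WT females. It was 1.11 ± 0.25 higher in females than in males among treated dKO livers and 0.68 ± 0.25 lower among treated WT livers (log2 -0.68). These comparisons share groups, and none was tested for Myc, which had been chosen for this pattern. With array position as a linear covariate the dKO against WT difference was 1.5 in treated females and -0.29 in treated males, so its size in both sexes rests on how position is treated.

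Ordered by mean level, Myc stood at 0.58 ± 0.38 in treated dKO females, 0.22 ± 0.32 in treated WT males, -0.44 ± 0.53 in untreated WT females, -0.45 ± 0.35 in untreated dKO females, -0.46 ± 0.30 in treated WT females and -0.52 ± 0.23 in treated dKO males (SD, n = 4 each). Each group overlapped the next one in this order. The probe used for Myc is printed 10 times on each array, and its repeated spots had a median SD of 0.068 on the log2 scale, against 0.37 between arrays of a group, so spot noise was a small part of the spread.

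All 3 Myc probes showed the female and the male difference. The second probe, A_52_P108346, was 1.06 higher in treated dKO than in treated WT females and differed by -0.73 in males, and the most upstream probe, printed above, differed by 0.84 and -0.64. For each of these 3 probes the dKO and WT values did not overlap in either sex, although the most upstream probe in males missed overlap only narrowly, with -3.70 in the nearest array of each genotype. The authors' deposited table lists signed folds between 2.01 and 2.27 for treated dKO against treated WT females over its 10 rows of the main Myc probe, and between -1.81 and -1.65 for the males, where a minus sign marks a lower value in dKO.

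**Figure D2:**
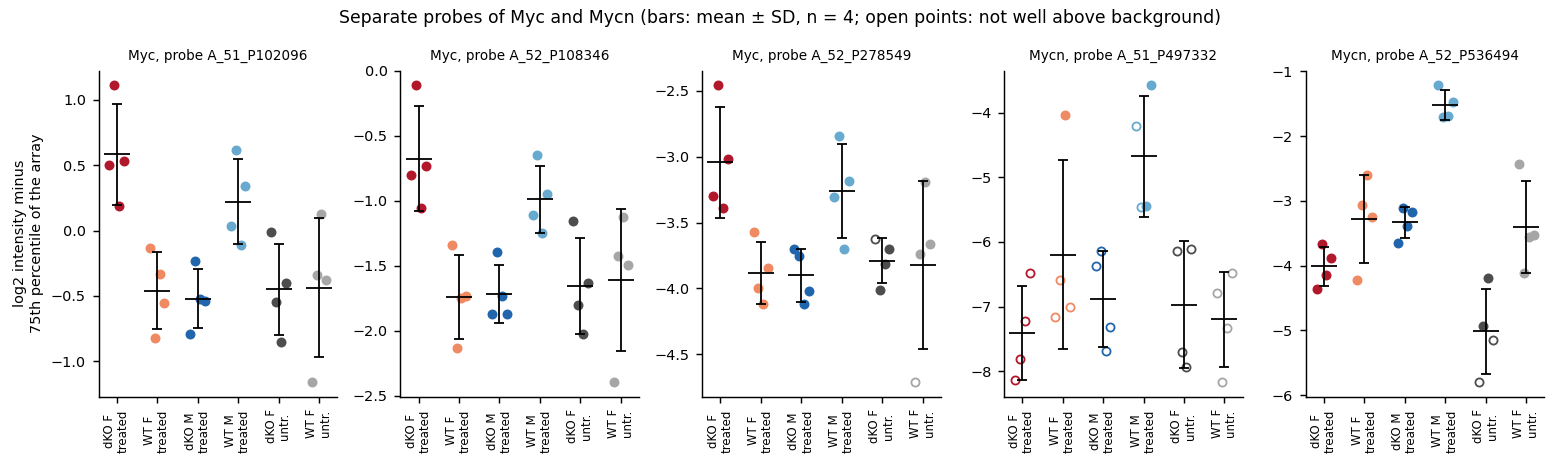
Log2 level (y axis) on each array in the 6 groups (x axis) for the 3 Myc probes and the 2 Mycn probes. Points are arrays, open where not well above background, and bars give the mean ± SD (n = 4). Treated dKO females and treated WT males have the highest means for all 3 Myc probes, while the order of the other 4 groups differs between probes, and the Mycn probe A_51_P497332 was above background on 3 of 24 arrays.

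On average the mitosis genes were highest in the same 2 groups as Myc, although treated dKO female replicate 3 lay within the range of treated dKO males. The list of 8 mitosis genes had a summed linear level of 3.87 to 23.6 in treated dKO females and 2.02 to 3.75 in treated WT females, and of 2.19 to 4.80 in treated dKO males and 11.0 to 14.0 in treated WT males. In untreated females the sum was 1.54 to 2.32 in dKO and 1.55 to 2.48 in WT. With treatment 7 of the 8 rose in dKO females and none was called in WT females, and 7 were higher in females among treated dKO livers and 7 lower in females among treated WT livers (limma). Of all genes 16.4% rose with treatment in dKO females. Between the sexes 8.05% were higher in treated dKO females and 3.29% lower in treated WT females. Over the 24 arrays the mean log2 level of the list had a Pearson correlation of 0.79 with Myc, and of 0.50 within groups. This is a description of arrays that share groups, and the part of dividing cells in the level of Myc was not tested. In bulk RNA, fewer cells of a type and less RNA per cell cannot be told apart.

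The genes whose levels were most like that of Myc over the 24 arrays, among 13391 candidates above background on all of them, were Gins2, Uhrf1, Ncapg2 and Pik3r3, with Pearson correlations of 0.851, 0.844, 0.830 and 0.826. Gins2 belongs to the replicative helicase complex, Uhrf1 maintains DNA methylation behind the replication fork, Ncapg2 is a condensin subunit and Pik3r3 a regulatory subunit of PI3 kinase. Gins2, the first of them, averaged -1.25 ± 1.09 in treated dKO females and -3.09 ± 0.21 in treated WT females, and -2.85 ± 0.21 in treated dKO males and -1.52 ± 0.20 in treated WT males (SD, n = 4 each). Within groups the 4 correlations were lower, between 0.579 and 0.608.

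**Figure D3:**
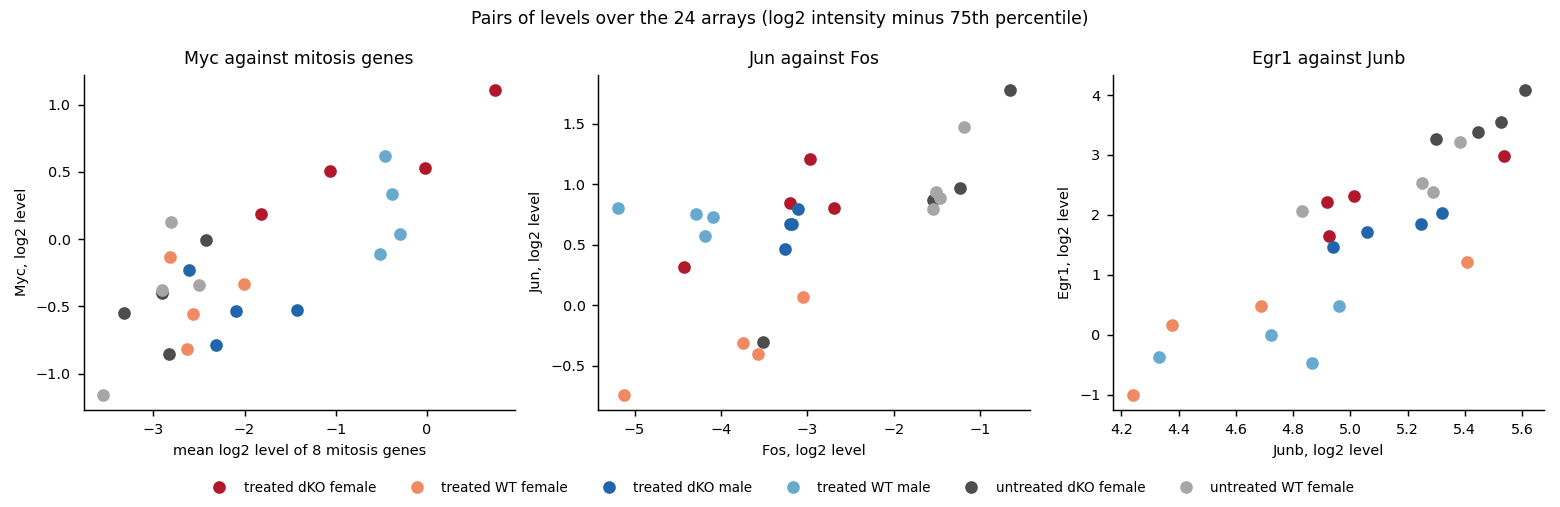
Levels on the 24 arrays for Myc against the mean log2 level of 8 mitosis genes, Jun against Fos and Egr1 against Junb (both axes log2 intensity minus the 75th percentile). Each point is one array, coloured by group. For Myc, treated WT males and treated dKO females sit toward the upper right, apart from treated dKO female replicate 3 (mitosis mean -1.82, Myc 0.19). The Pearson correlations are 0.79, 0.62 and 0.86.

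For the 8 genes other than Myc, 5 comparisons were tested with limma over all 19037 genes, and a gene is said to have risen or fallen only where its Benjamini-Hochberg adjusted p was under 0.05. In untreated females, dKO against WT, none of the 8 rose and 1 fell, where 5.2% of all genes were called higher and 4.62% lower. With treatment in dKO females 2 rose and 2 fell, against a background of 16.4% higher and 21.4% lower, and with treatment in WT females none rose and 3 fell, against 8.49% and 8.73%. In treated dKO livers 1 was higher and 1 lower in females than in males, against 8.05% and 12.3% of all genes, and in treated WT livers none was higher and 2 were lower in females, against 2.87% and 3.29%. Median log2 differences of the 8 genes were 0.10, -0.10, -0.45, -0.07 and -0.11 in that order, and those of all genes lay between -0.07 and 0.03. In the 2 comparisons that chose the genes, 13.6% of all genes were called higher and 16.3% lower in treated dKO than in treated WT females, and 14.5% and 10.8% in males. There, 8 of the 9 genes had positive differences in females and 5 of 9 in males, from which nothing is read.

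**Figure D4:**
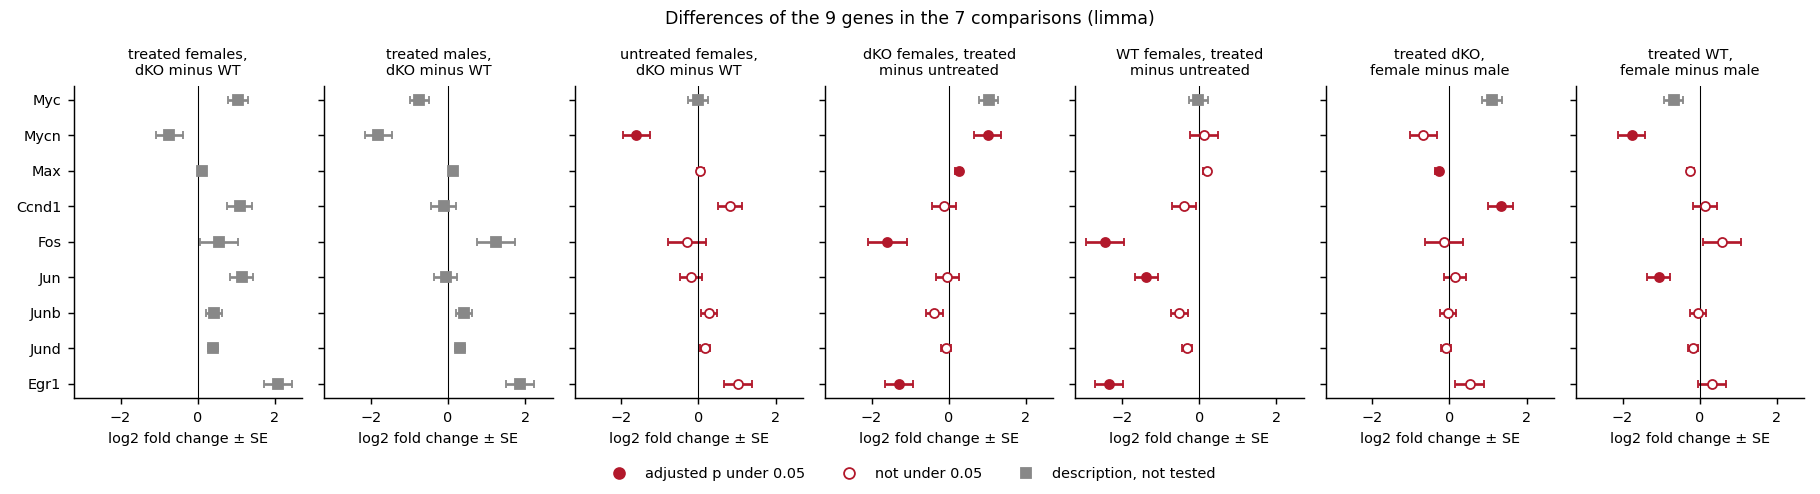
Log2 fold change ± SE (x axis) of the 9 genes (y axis) in the 7 comparisons, from limma over 24 arrays. Filled circles have an adjusted p under 0.05, open circles do not, and grey squares are descriptions without a test. Fos and Egr1 fell with treatment in both genotypes, and Ccnd1 was higher in females than in males among treated dKO livers.

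Mycn, which encodes the MYC relative best known from embryonic tissue and neuroblastoma, had its highest levels in treated WT males. The treated dKO males had levels of -3.65, -3.11, -3.39 and -3.17, against -1.22, -1.71, -1.68 and -1.47 in treated WT males, a difference of -1.81 ± 0.35 that is a description. Treated dKO females had -4.37, -3.67, -4.14 and -3.88, and treated WT females -4.22, -3.06, -2.59 and -3.25, with ranges that overlapped. Treated WT males stood above every array of every other group.

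Mycn was lower in treated WT females than in treated WT males by a log2 difference of -1.76 ± 0.35 (limma, adjusted p = 0.00460, 2 slides within -1.56 to -1.38). In untreated females Mycn had levels of -5.79, -4.94, -4.19 and -5.14 in dKO livers, where 2 of 4 arrays were well above background, against -2.42, -4.11, -3.56 and -3.53 in WT livers. It fell by 1.61 ± 0.35 (limma, adjusted p = 0.00529), and no dKO value reached the WT range. Both calls were lost with normexp background correction, which gave -0.58 and -0.77, and the adjusted p lay between 0.00227 and 0.26 over 20 alternatives for the genotype and between 0.00274 and 0.119 for the sexes. Mycn also rose with treatment in dKO females by 1.0 ± 0.35 (limma, adjusted p = 0.0294), with overlapping groups, and 7 of 20 alternatives lost that call, with adjusted p up to 0.733. Among these were the fits without treated dKO replicate 2 or 4 or untreated dKO replicate 1 or 4, where the adjusted p reached at most 0.113. Among treated dKO livers the female minus male difference was -0.68 ± 0.35 and did not pass (limma, adjusted p = 0.173). The other Mycn probe was above background on 3 of 24 arrays and is not used.

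Max encodes the shared partner of MYC, MYCN and the MXD proteins. It ranged from 2.23 to 2.99 over the 24 arrays and passed the test in 2 comparisons, both of dKO livers. It rose with treatment in dKO females by 0.25 ± 0.09, with values of 2.51 to 2.69 in treated and 2.24 to 2.49 in untreated livers that did not overlap (limma, adjusted p = 0.0274). In WT females the same comparison gave 0.20 ± 0.09 (limma, adjusted p = 0.127). Max was lower in females than in males among treated dKO livers, by a log2 difference of -0.28 ± 0.09 (limma, adjusted p = 0.0307), and -0.24 ± 0.09 among treated WT livers (limma, adjusted p = 0.11). The calls were lost in 9 and 11 of 21 alternatives, the adjusted p reaching 0.256 and 0.164. For treatment these included the fits without treated dKO replicate 2 or 3 or untreated dKO replicate 1 or 4, and for sex those without treated dKO female replicate 1 or 4 or male replicate 2 or 4. The dKO against WT differences of Max were 0.10 ± 0.09 in treated females, 0.14 ± 0.09 in treated males and 0.05 ± 0.09 in untreated females.

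The 13 other genes of the MYC, MAX and MXD network were all measured. None was called in untreated dKO against WT females, where 5.2% of all genes were called higher and 4.62% lower. With treatment in dKO females 1 rose and 3 fell, where 16.4% of all genes rose and 21.4% fell. Mxd3, a MAX partner tied to S phase, was at least 3.19-fold higher (limma, adjusted p = 0.000244). This is a bound because Mxd3 was not well above background in any untreated dKO liver. Mlxipl, the glucose-responsive factor ChREBP, fell by 0.63 ± 0.16 (limma, adjusted p = 0.00434), its partner Mlx by 0.26 ± 0.07 (limma, adjusted p = 0.00759) and the MYC antagonist Mxi1 by 0.51 ± 0.15 (limma, adjusted p = 0.0111). With treatment in WT females none rose and 2 fell, where 8.49% of all genes rose and 8.73% fell. Mycl fell by 0.76 ± 0.24 (limma, adjusted p = 0.0352) and Mxi1 by 0.47 ± 0.15 (limma, adjusted p = 0.0359). Among treated dKO livers 2 were higher and 5 lower in females, where 8.05% of all genes were higher and 12.3% lower. Mxi1 was among the lower ones, by a log2 difference of -0.72 ± 0.15. Mxd3 was among those called higher, but it was well above background on 1 of 4 treated dKO male arrays, the groups overlapped and the difference ranged between -0.41 and 1.66 within 2 slides. Among treated WT livers only Mxd3 was called, at least 3.23-fold lower in females, which is again a description. Of all genes 2.87% were higher and 3.29% lower there. Each call named for this network was lost in at least 1 alternative, that of Mycl in 10 of 21 and that of Mxi1 in WT females in 9 of 21.

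Most of the 39 MYC target genes of the list were not called in any one comparison. In untreated females 5 were lower in dKO and none higher, where 4.62% of all genes were called lower and 5.2% higher, with a list median of -0.20 against -0.04 for all genes. Mrto4, a ribosome assembly factor, fell by 0.46 ± 0.09 (limma, adjusted p = 0.00302), and Cad, the enzyme that starts pyrimidine synthesis, by 0.60 ± 0.12 (limma, adjusted p = 0.00318). With treatment in dKO females 9 rose and 3 fell, where 16.4% of all genes rose and 21.4% fell, with a median of 0.05 against -0.07 for all genes. Cad rose by 0.91 ± 0.12 (limma, adjusted p = 3.89e-05) and Cdk4 by 0.51 ± 0.10 (limma, adjusted p = 0.000551), whereas Ppat, of purine synthesis, fell by 0.95 ± 0.16 (limma, adjusted p = 0.000287) and the chaperonin Hspd1 by 0.65 ± 0.12 (limma, adjusted p = 0.000549). With treatment in WT females 1 rose and 8 fell, where 8.49% of all genes rose and 8.73% fell, with a median of -0.16, the fallen ones including Hspd1 by 0.53 ± 0.12 and Ldha, lactate dehydrogenase, by 0.62 ± 0.15. Between the sexes 3 were higher and 8 lower in treated dKO females than in treated dKO males, and none was called in treated WT livers (limma). The shares of all genes were 8.05% higher and 12.3% lower in dKO, and 2.87% and 3.29% in WT livers. The calls of Mrto4 in untreated females, of Hspd1 with treatment in both genotypes and of Cad, Cdk4 and Ppat with treatment in dKO females held in all alternatives. In the comparisons that chose Myc, 5 of 39 were higher and 4 lower in treated dKO than in treated WT females, and 2 higher and 5 lower in males. The shares of all genes were 13.6% higher and 16.3% lower in females, and 14.5% and 10.8% in males.

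Ccnd1 was higher in treated dKO females than in treated dKO males. The treated dKO females had levels of 3.66, 2.78, 3.21 and 3.26, and the treated dKO males 1.78, 1.13, 2.70 and 1.97. The lowest female value lay above the highest male value. Ccnd1 was higher in females by 1.33 ± 0.32 on the log2 scale, 2.51-fold (limma, adjusted p = 0.00709), and the adjusted p lay between 0.00254 and 0.0574 over 21 alternatives, and the call was lost only when these 2 groups were fitted alone. Treated WT females had 2.41, 2.07, 1.78 and 2.30 and treated WT males 1.61, 2.52, 1.87 and 2.03, a difference of 0.13 ± 0.32 (limma, adjusted p = 0.873). Whether the sex differences of the genotypes differ from each other was not tested.

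Ccnd1 averaged 3.35 ± 0.73 in untreated dKO females and 2.53 ± 0.17 in untreated WT females (SD, n = 4 each), a difference of 0.82 ± 0.32 that did not pass (limma, adjusted p = 0.114). It passed when untreated dKO replicate 3, the lowest of that group at 2.43, was left out, with a difference of 1.12 (limma, adjusted p = 0.0299). With treatment Ccnd1 differed by -0.12 ± 0.32 in dKO females (limma, adjusted p = 0.797) and by -0.39 ± 0.32 in WT females (limma, adjusted p = 0.438). As a description, Ccnd1 was 1.09 ± 0.32 higher in treated dKO than in treated WT females, with groups apart, and differed by -0.11 ± 0.32 in males, with groups that overlapped. Its repeated spots had a median SD of 0.052, against 0.47 between arrays of a group.

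Of the 17 other genes of the cyclin D step, all measured, 7 rose and none fell with treatment in dKO females. Among all genes 16.4% rose and 21.4% fell there. Cdk4, the kinase that cyclin D1 activates, rose as given above, the CDK4 and CDK6 inhibitor Cdkn2b rose by 1.93 ± 0.37 (limma, adjusted p = 0.000568), and the p53 target Cdkn1a by 2.91 ± 0.66 (limma, adjusted p = 0.00224). The list median was 0.27, against -0.07 for all genes. In WT females 3 rose and 2 fell with treatment, where 8.49% of all genes rose and 8.73% fell. The list median was 0.01, with Cdkn2b rising by 1.58 ± 0.37 (limma, adjusted p = 0.00626) and Ccnd3 falling by 0.38 ± 0.12 (limma, adjusted p = 0.0376). In untreated females 3 were higher and 1 lower in dKO, where 5.2% of all genes were higher and 4.62% lower. Among the higher ones were Cdkn2b by 1.83 ± 0.37 (limma, adjusted p = 0.00276) and Ccnd2 by 0.45 ± 0.14 (limma, adjusted p = 0.0469). The S phase factor E2f1 was higher in females by 0.85 ± 0.29 among treated dKO livers (limma, adjusted p = 0.0418) and lower in females, by a log2 difference of -1.21 ± 0.29, among treated WT livers (limma, adjusted p = 0.0141). Over the whole list 5 were higher and 1 lower in females among treated dKO livers, and 1 higher and 3 lower among treated WT livers. The shares of all genes were 8.05% higher and 12.3% lower in dKO, and 2.87% and 3.29% in WT livers. With treatment in dKO females the calls of Cdk4, Cdkn2b and Cdkn1a held in all alternatives, whereas that of Ccnd2 was lost in 14 of 21, that of E2f1 in dKO livers in 11 and that of Ccnd3 in 10.

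Egr1 fell with treatment in both genotypes and had higher means in dKO than in WT livers in all 3 genotype comparisons. Treated dKO females had levels of 2.98, 1.65, 2.22 and 2.31, and untreated dKO females 3.38, 3.27, 4.09 and 3.56, with every treated value below every untreated one. Treated WT females had 0.17, -1.0, 1.22 and 0.49, and untreated WT females 2.38, 2.07, 3.22 and 2.53, again without overlap. The treated dKO males had 1.47, 1.85, 2.04 and 1.72, against -0.38, 0.48, -0.47 and -0.01 in treated WT males.

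Egr1 was 2.44-fold lower with treatment in dKO females (log2 -1.29 ± 0.37, limma, adjusted p = 0.00980) and 5.05-fold lower in WT females (log2 -2.33 ± 0.37, limma, adjusted p = 0.000304). Both calls held in all 21 alternatives, where the adjusted p reached at most 0.0435 in dKO and 0.0165 in WT. Untreated dKO females were 1.02 ± 0.37 above untreated WT females, with groups that did not overlap, but this did not pass (limma, adjusted p = 0.0836, between 0.86 and 0.89 within 2 slides). Fitted on these 2 groups alone it passed (limma, adjusted p = 0.044). The female minus male differences did not pass, at 0.52 ± 0.37 in treated dKO (limma, adjusted p = 0.329) and 0.31 ± 0.37 in treated WT livers (limma, adjusted p = 0.704).

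As a description, Egr1 was 4.20-fold higher in treated dKO than in treated WT females (log2 2.07 ± 0.37) and 3.63-fold higher in treated dKO than in treated WT males (log2 1.86 ± 0.37), with groups apart in both. With array position as a covariate these differences were 1.29 and 1.08. Bile duct markers moved in the same direction: 7 of 8 were called higher in treated dKO than in treated WT females and 8 of 8 in males, and their summed linear level was 74.5 to 247 in treated dKO females, 9.64 to 22.2 in treated WT females, 62.3 to 79.5 in treated dKO males and 10.2 to 20.7 in treated WT males. In untreated females the sum was 16.3 to 25.3 in dKO and 8.24 to 9.42 in WT, and 4 of 8 markers were higher and 1 lower. With treatment in dKO females, where Egr1 fell, 5 of 8 bile duct markers rose and none fell, against 16.4% and 21.4% of all genes. Cftr was well above background on 8 of the 24 arrays, fewest of these markers. Stellate cell and fibroblast markers were also higher in dKO, with 6, 3 and 2 of 8 called higher and none lower in treated females, treated males and untreated females. In these 3 comparisons 13.6%, 14.5% and 5.2% of all genes were called higher, and 16.3%, 10.8% and 4.62% lower. For the markers, summed levels follow. Their summed level was 102 to 181 in treated dKO and 57.0 to 77.3 in treated WT females, 108 to 118 in treated dKO and 32.4 to 74.6 in treated WT males, and 77.1 to 107.6 in untreated dKO and 59.3 to 69.4 in untreated WT females. The part of bile duct, stellate and fibroblast cells in the level of Egr1 was not tested.

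Fos, whose product needs a JUN partner to bind DNA, fell with treatment in females of both genotypes. The treated WT females had levels of -3.57, -5.12, -3.06 and -3.74, one of them not well above background, and untreated WT females -1.46, -1.54, -1.18 and -1.51. Treated and untreated values did not overlap. Fos was 5.45-fold lower with treatment in WT females (log2 -2.45 ± 0.49, limma, adjusted p = 0.00234), and the call held in all 20 alternatives, although the difference was -1.11 with normexp correction. Treated dKO females had -2.69, -2.97, -4.43 and -3.20, and untreated dKO females -3.51, -0.65, -1.23 and -1.55.

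In dKO females Fos fell by 1.59 ± 0.49 with treatment (limma, adjusted p = 0.0159), with groups that overlapped because untreated dKO replicate 1 lay at -3.51. On that array 50.4% of spots were well above background, the lowest share of all arrays, against 61.2 to 64.6% in the rest of its group. Within the 3 slides that held both groups the difference ranged between -2.54 and 0.82. The call was lost without treated dKO replicate 3 or untreated dKO replicate 2 and in the fit of these 2 groups alone, the adjusted p lying between 0.000917 and 0.108 over 20 alternatives. With array position as a covariate the difference was -2.53. Fos differed by -0.31 ± 0.49 between untreated dKO and WT females (limma, adjusted p = 0.753), and without untreated dKO replicate 1 by 0.28. The sex differences were -0.13 ± 0.49 in treated dKO (limma, adjusted p = 0.878) and 0.57 ± 0.49 in treated WT livers (limma, adjusted p = 0.574).

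Between genotypes in treated livers, where the values are a description, Fos was 0.55 ± 0.49 higher in dKO females and 1.25 ± 0.49 higher in dKO males. The treated dKO males lay close together at -3.18, -3.26, -3.11 and -3.20, above all treated WT males at -4.18, -4.09, -5.19 and -4.29, one of which was not well above background. With position as a covariate both differences turned to -1.33 and -0.63, so no direction is given for Fos between genotypes in treated livers.

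Jun, the principal partner of FOS in AP-1, had a mean of -0.35 in treated WT females, and means between 0.65 and 1.02 in the other 5 groups. Treated WT females had levels of -0.40, -0.74, 0.07 and -0.31. Untreated WT females had 0.89, 0.80, 1.47 and 0.93, treated WT males 0.58, 0.73, 0.80 and 0.75, and treated dKO females 0.80, 1.21, 0.31 and 0.85. The treated WT females lay below every array of these 3 groups.

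Jun was 2.59-fold lower with treatment in WT females (log2 -1.37 ± 0.29, limma, adjusted p = 0.00353), and the call held in all 21 alternatives. In dKO females treatment gave a difference of -0.04 ± 0.29 (limma, adjusted p = 0.936), with untreated dKO females at -0.30, 1.78, 0.97 and 0.87. Among treated WT livers Jun was lower in females than in males by a log2 difference of -1.06 ± 0.29 (limma, adjusted p = 0.0341), a call lost in 8 of 21 alternatives, with an adjusted p between 0.0144 and 0.105. Of the 8 fits that each left out 1 array, the call held only without treated WT female replicate 3 or male replicate 1. Among treated dKO livers the female minus male difference was 0.14 ± 0.29 (limma, adjusted p = 0.763). As a description, Jun was 1.14 ± 0.29 higher in treated dKO than in treated WT females and differed by -0.07 ± 0.29 in males. With position as a covariate these values were 0.05 and -1.16.

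Junb and Jund, whose products also pair with FOS, were both measured on every array, and neither was called in any of the 5 tested comparisons (limma). Junb ranged from 4.24 to 5.61 and Jund from 4.52 to 5.67 over the 24 arrays. Jund was lowest on average in treated WT females, at 4.83 ± 0.26. Junb was lowest there too on the probe used, at 4.68 ± 0.52, close to 4.72 ± 0.28 in treated WT males (SD, n = 4 each). On the other Junb probe, A_51_P159201, treated WT males were lowest, at 4.55 against 4.75 in treated WT females. With treatment in WT females the differences were -0.51 ± 0.21 for Junb (limma, adjusted p = 0.0985) and -0.32 ± 0.13 for Jund (limma, adjusted p = 0.0909), and both passed when treated WT replicate 3, the highest of its group for both genes, was left out, with adjusted p of 0.0110 and 0.0438. They also passed with normexp correction (limma, adjusted p = 0.0306 and 0.0197), and Jund with median centring (limma, adjusted p = 0.0369). As a description, Junb was 0.42 ± 0.21 higher in treated dKO than in treated WT livers in both sexes, and Jund 0.40 ± 0.13 higher in females and 0.32 ± 0.13 in males. With position as a covariate the 4 differences lay between -0.16 and 0.04.

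The other immediate early genes moved both ways with treatment. Of 36 genes on the list 31 were measured. In dKO females 10 rose and 6 fell, where 16.4% of all genes rose and 21.4% fell. The list median was 0.27 against -0.07 for all genes. Zfp36, an RNA-binding protein that destabilises mRNAs, fell by 1.45 ± 0.22 (limma, adjusted p = 9.32e-05) and Ier2 by 1.24 ± 0.22 (limma, adjusted p = 0.000350), whereas the matricellular gene Ccn2 rose by 1.57 ± 0.19 (limma, adjusted p = 1.27e-05) and Egr2, a relative of Egr1, by 2.16 ± 0.38 (limma, adjusted p = 0.000320). In WT females 5 rose and 6 fell, with a median of -0.04, where 8.49% of all genes rose and 8.73% fell. Phlda1 fell by 1.26 ± 0.21 (limma, adjusted p = 0.000585) and Ier2 by 1.09 ± 0.22 (limma, adjusted p = 0.00240), whereas Egr2 rose by 1.94 ± 0.38 (limma, adjusted p = 0.00186) and the stress gene Gadd45b by 1.65 ± 0.34 (limma, adjusted p = 0.00290). Egr2 and Egr1 passed the test in opposite directions in both genotypes. The treatment calls named here held in all alternatives, apart from that of Egr2 in WT females, which was lost with normexp correction.

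In untreated females 4 of 31 immediate early genes were higher in dKO and none lower, with a median of 0.10 against -0.04 for all genes. The shares of all genes were 5.2% higher and 4.62% lower. Atf3, a stress-induced partner of JUN, rose by 1.61 ± 0.38 (limma, adjusted p = 0.00923), Klf6 by 0.79 ± 0.20 (limma, adjusted p = 0.0164), Tiparp by 0.35 ± 0.11 (limma, adjusted p = 0.0395) and Egr2 by 1.21 ± 0.38 (limma, adjusted p = 0.0490). The call of Atf3 held in all 21 alternatives, whereas that of Tiparp was lost in 13 of 21 and that of Egr2 in 17 of 20. Between the sexes Ccn2 was lower in females in treated dKO livers, by a log2 difference of -1.34 ± 0.19 (limma, adjusted p = 0.000115), and in treated WT livers, by a log2 difference of -1.74 ± 0.19 (limma, adjusted p = 1.37e-05). Plk3, a polo-like kinase, was lower in females, by log2 differences of -0.95 ± 0.21 (limma, adjusted p = 0.00446) and -1.24 ± 0.21 (limma, adjusted p = 0.00144). The sex calls of Ccn2 and Plk3 held in all alternatives. In total 1 gene was higher and 5 lower in females among treated dKO livers, and none higher and 2 lower among treated WT livers. The shares of all genes were 8.05% higher and 12.3% lower in dKO, and 2.87% and 3.29% in WT livers. In the comparisons that chose Myc, 12 of 31 were higher and 3 lower in treated dKO than in treated WT females, and 5 higher and 2 lower in males, with Ccn2 higher by 1.95 ± 0.19 in females and 1.55 ± 0.19 in males. The shares of all genes were 13.6% higher and 16.3% lower in females, and 14.5% and 10.8% in males.

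Some immune and stromal markers were also called with treatment. Among all genes 8.49% rose and 8.73% fell with treatment in WT females, and 16.4% and 21.4% in dKO females. In WT females 4 of 8 macrophage, 3 of 6 measured neutrophil and 5 of 6 measured B and plasma cell markers rose with treatment and none fell, whereas none of 7 hepatocyte markers was called, and no stellate cell or fibroblast marker rose and 1 of 8 fell. The summed macrophage level was 112 to 243 in treated and 33.5 to 67.8 in untreated WT females, and the neutrophil sum was 5.19 to 20.8 in treated and 0.810 to 2.26 in untreated WT females. In dKO females 5 of 8 stellate cell and fibroblast markers rose and 1 fell, 2 of 8 macrophage and 2 of 6 neutrophil markers rose, and 3 of 7 hepatocyte and 3 of 4 measured erythroid markers fell. The B cell markers Cd79a and Pax5 and the neutrophil marker Elane were well above background on 2, 0 and 1 of the 24 arrays. The part of these cells in the fall of Fos and Egr1 was not tested.

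**Figure D5:**
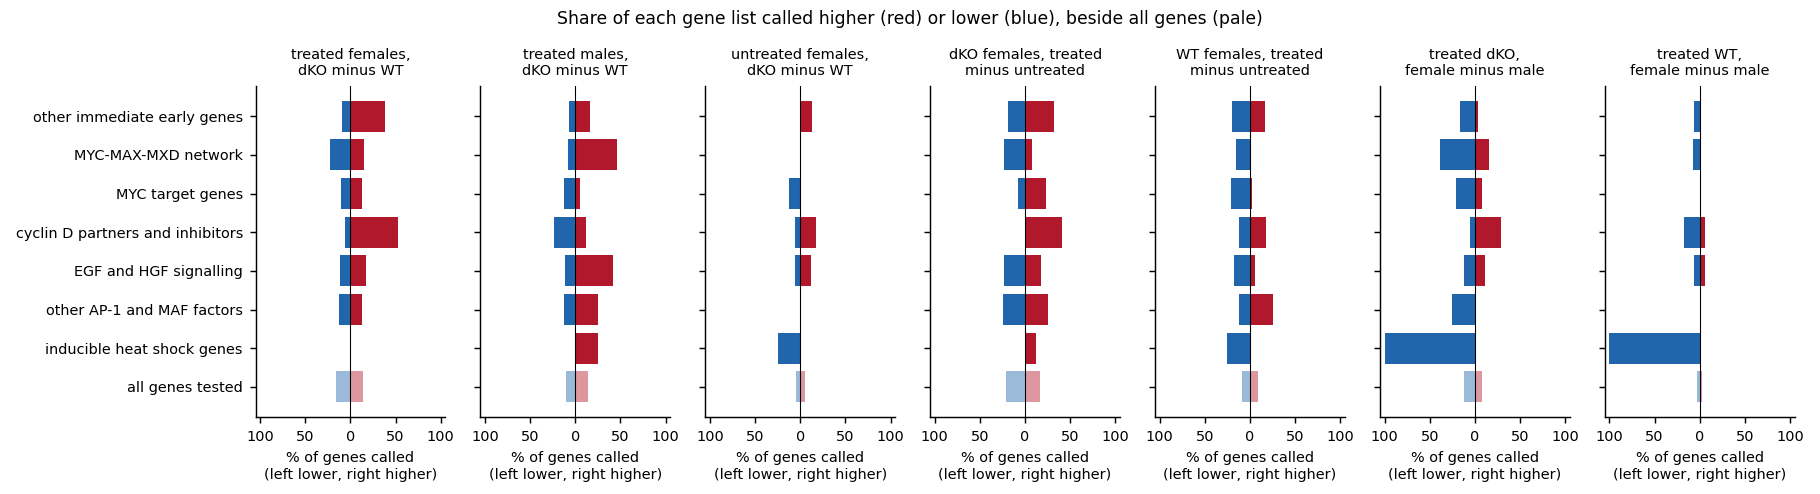
Percent of measured genes of each list called lower (blue, to the left) or higher (red, to the right) in the 7 comparisons (limma, adjusted p under 0.05), with all 19037 genes in pale colours in the lowest row. The comparisons in the 2 left panels chose Myc and are a description. All 8 inducible heat shock genes were lower in females in both genotypes.

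Of the upstream EGF and HGF signalling list, 17 of 18 genes were measured. With treatment in dKO females 3 rose and 4 fell, where 16.4% of all genes rose and 21.4% fell. Among them were the EGFR ligands Tgfa, higher by 0.60 ± 0.13 (limma, adjusted p = 0.00164), and Egf, which fell by 0.89 ± 0.20 (limma, adjusted p = 0.00227). In WT females 1 rose and 3 fell, where 8.49% of all genes rose and 8.73% fell. The receptor genes Egfr and Met fell by 1.20 ± 0.35 (limma, adjusted p = 0.0244) and 0.59 ± 0.14 (limma, adjusted p = 0.00581). Spred1, an inhibitor of RAS signalling, fell in both genotypes, by 0.35 ± 0.10 in dKO (limma, adjusted p = 0.0110) and 0.73 ± 0.10 in WT (limma, adjusted p = 0.000102), and was the second most like Fos over the arrays among the 13391 candidate genes above background on all of them. Egfr was lower in females than in males among treated dKO livers by a log2 difference of -2.72 ± 0.35 (limma, adjusted p = 5.24e-05), and Tgfa by one of -0.66 ± 0.13 among treated WT livers (limma, adjusted p = 0.00460). In untreated females Tgfa was lower in dKO, by a log2 difference of -0.73 ± 0.13 (limma, adjusted p = 0.00111), and Spry1, another RAS pathway inhibitor, higher by 0.99 ± 0.27 (limma, adjusted p = 0.0223). Of these calls, those of Spred1 in WT females and of Egfr between the sexes held in all alternatives, and that of Egfr with treatment was lost in 6 of 21.

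The 8 other AP-1 and MAF factors gave 2 higher and 2 lower with treatment in dKO females and 2 higher and 1 lower in WT females. The shares of all genes were 16.4% higher and 21.4% lower in dKO females, and 8.49% and 8.73% in WT females. Batf3, a dendritic cell factor, rose by 1.08 ± 0.32 in dKO (limma, adjusted p = 0.0131) and 1.63 ± 0.32 in WT females (limma, adjusted p = 0.00209). Its call in dKO females was lost with array position as a covariate and without treated dKO replicate 2, and that in WT females held in all alternatives. None was called in untreated dKO against WT females or between the sexes in treated WT livers (limma). Among treated dKO livers 2 were lower in females, where 12.3% of all genes were called lower. The inducible heat shock genes, which often rise with immediate early genes under stress, divided by sex: all 8 were lower in females in treated dKO and in treated WT livers, with medians of -1.46 and -1.15. The shares of all genes called lower there were 12.3% and 3.29%. Hspa1b was lower in females by a log2 difference of -4.15 ± 0.39 in dKO (limma, adjusted p = 1.69e-06) and -4.18 ± 0.39 in WT (limma, adjusted p = 2.36e-06). Both calls held in all alternatives. Jun was likewise called lower in females among treated WT livers, as given above, and none of Fos, Junb, Jund and Egr1 was called between the sexes in either genotype (limma).

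Over the 24 arrays Egr1 followed Junb most closely among the 9 genes, with a Pearson correlation of 0.86, and of 0.83 within groups. Fos and Egr1 gave 0.80 over all arrays and 0.50 within groups, and Fos and Jun 0.62 and 0.84. For both Fos and Jun, untreated dKO replicate 1 was the lowest of its group, and it had the lowest share of spots above background of the 24 arrays. The correlations of Myc with the other 8 genes lay between -0.28 and 0.20. Among the same 13391 candidates, the 5 genes most like Fos were Zfp36l1 (0.873), Spred1 (0.844), Ier2 (0.823), the transcript AK013239 (0.818) and Nup160 (0.803). Zfp36l1, an RNA-binding protein related to Zfp36, averaged 3.50 ± 0.15 in treated and 3.98 ± 0.19 in untreated dKO females, and 3.44 ± 0.17 in treated and 3.89 ± 0.08 in untreated WT females (SD, n = 4 each). These correlations describe arrays that share groups and slides and carry no test.

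The authors' deposited table holds 7 signed folds for each of the 13 probes. Of these 91 values, 82 had in every row of the probe the sign of the difference computed here, 4 had rows of both signs and 5 the opposite sign. The 5 were Ccnd1 and Jund with treatment in dKO females, Junb and Jund between the sexes in treated dKO livers, and the most upstream Myc probe in untreated females, with log2 differences here between -0.12 and 0.03.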

How the data were processed

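The authors scanned single-colour (Cy3) Agilent arrays and deposited 1 Feature Extraction file for each of the 24 samples. Per the file headers the intensity values were background-subtracted and detrended by Feature Extraction 10.5.1.1 and not normalised between arrays, whereas the submitters' processing notes name version 9.53. The authors also deposited a table of signed folds per probe, read here as a score because its normalisation is unstated. RNA was amplified with the WT-Ovation Pico system before labelling, per the labels' protocols. Coordinates of probes are mm9, per the file headers.

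The log2 of each processed intensity minus that of the array's 75th percentile gave the level. Spots marked as outliers were left out, repeated spots were averaged, probes had to be well above background on at least 4 arrays, and each gene was represented by its brightest probe. Of 41174 probes, 28051 were kept, for 19037 genes. A fit of 6 group means over all 24 arrays used limma 3.58.1 in R 4.3.3 (data package data.table, version 1.17.8), with Benjamini-Hochberg adjustment over all genes and a threshold of 0.05. The fit was tested on simulated data. Figures were drawn with matplotlib 3.10.9 in Python 3.11.15. A fold given as a bound sets the mean of the brighter group against the lowest signal well above background on the arrays of the dimmer group, or the probe's own signal where that was higher.

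Gene names came from the array files, updated by accession through RefSeq for 26690 probes and by other means for 6153, with the file's own name kept for 8331. The genes named were the 9 members, up to 4 called genes of a list with the lowest p in a comparison, the 5 most like Myc and the 5 most like Fos, and Foxa1, Foxa2 and Cyp2b10. A sex-chromosome gene is not named, and a few genes that the rule picks are not reported here. The members and lists were chosen with earlier results of these data known. Background correction, scaling, probe filter, probe choice, outlier spots, samples fitted, slide, array position, replicate number, variance moderation and each replicate were varied. Samples of different groups with the same replicate number did not as a rule deviate together. The correlations of their deviations lay between -0.35 and 0.34, and 5 of 28 exceeded 0.1. The highest, 0.34 for replicate 3 of the untreated genotypes, and the next, 0.26 for replicate 4 of treated and untreated WT females, came from pairs on a shared slide. Other pairs on a shared slide were lower, down to 0.02.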

Additional observations from a re-analysis of the deposited data

Results flagged for a closer look

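Among treated WT males Max had its lowest level on replicate 1, at 2.50, and its gap to the next array was 0.912 of the range of the group. Among treated dKO females Junb had its highest level on replicate 1, at 5.54, and its gap to the next array was 0.848 of the range. These were 2 of 54 groups of 4 arrays examined for an array that stands apart, by Dixon's critical value, which chance alone passes in about 1 in 20 groups.

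For Myc the dKO minus WT difference was larger by 1.79 on the log2 scale in treated females than in treated males, with every dKO array above every WT array in females and below in males. The same 4 groups give a female minus male difference that was larger by 1.79 in treated dKO than in treated WT livers. Neither difference was tested, because Myc was chosen for this pattern.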

How the results depend on the processing

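Counts of genes called moved by over 1.5 times under these settings (limma). With normexp background correction, 2644 genes were called for genotype in treated males (4816 as reported), 753 in untreated females (1868), 1952 for treatment in WT females (3277), 2300 for sex in treated dKO (3881) and 525 in treated WT livers (1174). With only the 2 groups compared in the fit, the counts were 2080 for genotype in treated females (5688), 2832 in untreated females, 4307 for treatment in dKO females (7207) and 1104 for sex in treated dKO livers. Slide as a fixed block gave 1181 for genotype in untreated females. Array position as a covariate gave 43 and 210 for genotype in treated females and males, 1245 in untreated females and 2360 for treatment in dKO females. Leaving out 1 replicate at a time gave 3931 to 7198 genes for genotype in treated females, 3835 to 4676 in treated males and 1127 to 1772 in untreated females, 5551 to 8338 for treatment in dKO and 1938 to 3003 in WT females, and 2290 to 5987 for sex in treated dKO and 700 to 1126 in treated WT livers. Those beyond 1.5 times were 1127 without untreated dKO replicate 4 and 1186 without untreated WT replicate 1 for untreated genotypes, and 1938 without treated WT replicate 3 and 2181 without untreated WT replicate 1 for treatment in WT females. For sex they were 2320, 5987 and 2290 without treated dKO female replicate 2, 3 and 4, and 733, 721 and 700 without treated WT female replicate 1, female replicate 4 and male replicate 4. The share of calls that were higher was 24.9% with normexp and 58.1% with only 2 groups for genotype in treated females (45.5% as reported), and with median centring 36.6% for genotype in treated males (57.2%), 35.2% for treatment in WT females (49.3%) and 51.2% for sex in treated dKO livers (39.5%).

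The labels state no pairing of samples with the same replicate number, although some of them also shared a slide. With the replicate number as a block, 5325, 4578 and 1604 genes were called for genotype in treated females, treated males and untreated females, 12 of 149 named list differences no longer passed (41 with only 2 groups, 27 with slide as a fixed block, and 187 of 1192 values with a replicate left out), and no call of the 8 tested members changed. Of the called member differences, 130 values kept their call and 21 lost it with a changed setting, and 76 kept and 20 lost it with a replicate left out. None reversed.

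Differences that were not called changed sign as follows. Mycn with treatment in WT females was -0.025 with slide as a fixed block, Max between untreated genotypes -0.0099 with median centring, and Ccnd1 with treatment in dKO females 0.041 with quantile normalisation and 0.0092 with array position. Jun with treatment in dKO females was 0.021 with quantile normalisation and 0.027 with slide as a fixed block, and -0.074 between the sexes in treated dKO livers with array position. Junb between the sexes in treated dKO livers was 0.0025, 0.14, 0.0085 and 0.10 with normexp, quantile normalisation, median centring and the mean of a gene's probes, and in treated WT livers 0.078 with that mean and 0.039 with slide as a fixed block. Jund with quantile normalisation was 0.21 with treatment in dKO females and 0.091 between the sexes in treated dKO livers. Of list genes, Etv5 between treated female genotypes was -0.49 and Ccne2 with treatment in WT females 0.16 with normexp. With a replicate left out, Mycn with treatment in WT females lay between -0.11 and 0.45, Max between untreated genotypes between -0.0016 and 0.082, Ccnd1 with treatment in dKO females between -0.43 and 0.16 and between the sexes in treated WT livers between -0.0021 and 0.30. Fos lay between -0.67 and 0.28 for untreated genotypes and -0.35 and 0.23 between the sexes in treated dKO livers, and Jun between -0.51 and 0.18 for untreated genotypes and -0.41 and 0.28 with treatment in dKO females. Junb between the sexes lay between -0.19 and 0.018 in treated dKO and -0.29 and 0.10 in treated WT livers, Jund with treatment in dKO females between -0.18 and 0.034, and Egr1 between the sexes in treated WT livers between -0.022 and 0.72. The cause of these changes was not tested. Probes near background limit Fos and Mycn.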
